A study of Mus musculus with 20 samples.

Results

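Bone cells whose titles give a low Sca-1 gate and a negative PDGFRa gate, named SL, were compared with a second group, named A. The A cells were gated as Sca-1-negative, PDGFRa-positive and PDGFRb-negative. Both groups were taken by fluorescence sorting from collagenase-digested bone of untreated wild-type male C57BL6 mice at 8 weeks of age, without culture, and both were gated as negative for blood lineage markers (Lin-) and for CD31 and as positive for CD51. The comparison used the 4 SL arrays and the 4 A arrays, 8 of the 20 arrays of the series. The others hold AB cells (Sca-1-, PDGFRa+, PDGFRb+), B cells (Sca-1-, PDGFRa-, PDGFRb+) and DN cells (Sca-1-, PDGFRa-), 4 arrays each. The titles of the SL and DN samples name the gate on the remaining PDGF receptor with both a minus and a plus, so it is not stated here. The labels do not say whether replicates came from separate animals or sorts, so every p-value measures only the spread between these arrays, which may be technical.

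CD51 is the integrin alpha-v chain, which osteoblasts and their progenitors carry, and CD31 marks endothelium. Sca-1 (stem cell antigen 1) is a GPI-anchored surface protein of mouse stem and progenitor cells that also marks many connective tissue fibroblasts. PDGFRa and PDGFRb are receptor tyrosine kinases for platelet-derived growth factors and mark mesenchymal progenitors, fibroblasts and, for PDGFRb, pericytes. Osteoblasts secrete type I collagen and the proteins and enzymes that let it mineralize, osteocytes are the cells that become enclosed in that matrix, and growth plate chondrocytes lay down cartilage that ends in a hypertrophic zone next to bone.

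Signal is given as log2 of the authors' normalized array intensity. Differences are SL minus A in log2 units ± SE from limma over all 20 arrays, with n = 4 arrays a group, and a gene was called at a Benjamini-Hochberg adjusted p under 0.05 over 9129 genes. Arrays correlated across genes at 0.977 to 0.979 within SL and at 0.959 to 0.981 within A, and array medians lay between 6.40 and 6.47. The number of arrays limits the precision, and each SE pools the spread within all 5 groups of the series.

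The transcripts of the sorted proteins were read first, as a check of the gates. Ly6a, which encodes Sca-1 (chromosome 15, 74994877 to 74998031 in the authors' deposited table, which does not name its build), read 10.78, 10.30, 10.54 and 10.42 in the SL arrays, against 8.03, 7.25, 7.45 and 8.15 in the A arrays. It was higher in SL by 2.79 ± 0.72 (adjusted p = 0.00531), and the groups did not overlap. Pdgfra (chromosome 5, 75152292 to 75198215 in that table) read 10.34, 10.18, 10.32 and 10.10 in SL, against 8.97, 8.95, 9.15 and 8.96 in A. Its transcript was therefore higher, by 1.23 ± 0.16 (adjusted p = 8e-06), in the cells gated as lacking PDGFRa than in those gated as carrying it, so the mRNA ran opposite to the label. The other probe set of Pdgfra gave 0.84 ± 0.20 in the same direction (adjusted p = 0.00332 over probe sets). Across the sorted groups Pdgfra averaged 10.24 in SL, 9.72 in AB, 9.03 in B, 9.01 in A and 7.87 in DN. SL thus had the highest mean, but its difference from AB was not called (0.51 ± 0.16, adjusted p = 0.0524). B, gated as lacking PDGFRa, read about the same as A. Pdgfrb read 10.19, 10.13, 10.24 and 10.28 in SL, against 9.38, 9.14, 9.22 and 9.36 in A, and was higher in SL by 0.93 ± 0.12 (adjusted p = 4.68e-06). Why transcript and gate differ was not tested, and the groups are called SL and A throughout for that reason.

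The genes of the shared gates were not called. Itgav, which encodes CD51, read 9.97, 9.93, 9.62 and 9.97 in SL, against 10.15, 9.92, 9.76 and 9.95 in A (-0.07 ± 0.12, 95% interval -0.33 to 0.18, adjusted p = 0.683). Pecam1, which encodes CD31, lay between 6.24 and 7.55 in SL and between 5.89 and 6.89 in A (0.53 ± 0.32, adjusted p = 0.227). Ptprc, which encodes the leukocyte protein CD45 and is not named in the gates, varied most between replicates, at 6.92, 5.75, 6.88 and 8.00 in SL, against 7.82, 8.15, 6.64 and 8.19 in A (-0.81 ± 0.56, adjusted p = 0.291).

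**Figure D1:**
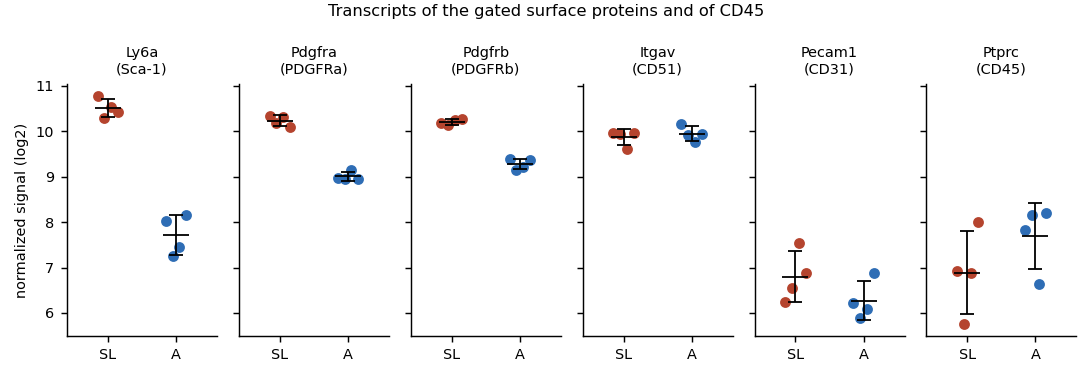
Normalized signal (log2) of 5 transcripts whose proteins the sample titles name as gates and of the leukocyte gene Ptprc, in the 4 SL arrays (left, red) and the 4 A arrays (right, blue), with the group mean and SD in black. Ly6a, Pdgfra and Pdgfrb are higher in every SL array than in any A array, and the other 3 overlap between the groups.

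Between SL and A, 2976 of 9129 genes were called (32.6%), 1534 of them higher in SL (16.8%) and 1442 lower (15.8%). The arrays of the groups did not overlap for 3035 genes (33.2%), and 2549 genes met both criteria. Large differences lay mostly on the side of lower signal in SL: 316 called genes were lower and 282 higher by more than log2 1, 75 lower and 37 higher by more than 2, and 18 lower and 3 higher by more than 3. The median difference of all genes was 0.02. In sorted pools like these, fewer cells of a type and less RNA per cell cannot be told apart.

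The 12 genes with the largest increase in SL included enzymes, secreted proteins and surface proteins of connective tissue cells. Aldh1a2, the retinaldehyde dehydrogenase that makes retinoic acid (chromosome 9, 71215789 to 71296243), read 8.90, 8.46, 8.67 and 8.72 in SL, against 5.41, 4.76, 5.08 and 5.20 in A. It was 11.9-fold higher in SL (3.58 ± 0.49, adjusted p = 1.27e-05). Cyp2f2, a cytochrome P450 (chromosome 7, 27119909 to 27133660), read 8.72, 8.31, 8.83 and 8.86 in SL, against 5.53, 4.70, 4.90 and 5.34 in A, 11.8-fold higher in SL (3.56 ± 0.29, adjusted p = 1.98e-08). Both genes were near the low end of the signal range in every A array. Clec3b, which encodes the plasminogen-binding protein tetranectin, read 10.55, 9.98, 10.37 and 10.17 in SL, against 6.87, 6.48, 7.48 and 7.62 in A (3.15 ± 0.61, adjusted p = 0.000473). Ms4a4d, a membrane protein of the MS4A family, read 9.54, 8.77, 9.51 and 8.56 in SL, against 6.33, 5.85, 6.67 and 5.82 in A (2.93 ± 0.41, adjusted p = 1.33e-05).

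Tek, the receptor for angiopoietins that is best known from endothelium, read 7.95, 6.78, 8.12 and 7.07 in SL, against 4.79, 4.55, 4.86 and 5.05 in A (2.67 ± 0.49, adjusted p = 0.000285). Inmt, a small-molecule methyltransferase, reached the highest signal of the 12, with 11.52, 11.17, 11.67 and 11.54 in SL, against 8.80, 8.47, 8.75 and 9.52 in A (2.59 ± 0.50, adjusted p = 0.000507). The smallest errors among them belonged to Fam124a (2.51 ± 0.13, adjusted p = 7.68e-11), to Anpep, the surface aminopeptidase CD13 (2.49 ± 0.14, adjusted p = 1.57e-10), and to Svep1, a large extracellular matrix and adhesion protein (2.52 ± 0.15, adjusted p = 4.04e-10). These errors pool the spread within all 5 groups and do not rank the spread within SL and A alone. Aldh1a2, with an error of 0.49, had SDs of 0.18 in SL, 0.27 in A and 1.66 in B. Fam124a read 9.15, 8.43, 8.82 and 8.62 in SL, against 6.16, 6.25, 6.32 and 6.23 in A. Pla1a, a phospholipase that acts on phosphatidylserine (2.48 ± 0.25), and Pi16, a secreted protein that marks a widespread fibroblast population in mouse (2.45 ± 0.48), completed the 12 with Ly6a. None of the 12 overlapped between the groups, which the rule that chose them required.

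The 10 genes described here from those with the largest decrease in SL included genes of cartilage and bone. Col10a1, the collagen of hypertrophic cartilage (chromosome 10, 34389981 to 34397085), read 6.08, 6.99, 8.41 and 7.58 in SL, against 12.57, 12.45, 11.65 and 11.87 in A. It was 29.2-fold lower in SL (-4.87 ± 0.85, adjusted p = 0.000168), and the SL arrays spread over more than 2 log2 units. Panx3, a pannexin channel of prehypertrophic and hypertrophic chondrocytes and of osteoblasts (chromosome 9, 37659902 to 37669222), read 5.27, 4.96, 5.15 and 4.36 in SL, against 9.90, 9.98, 9.0 and 9.25 in A (-4.60 ± 0.31, adjusted p = 2.04e-09). Car3, carbonic anhydrase 3 (chromosome 3, 14863512 to 14872523), had the lowest p-value of these 22 genes: it read 5.04, 4.54, 5.13 and 5.62 in SL, against 10.01, 9.69, 9.25 and 9.32 in A (-4.48 ± 0.20, adjusted p = 3.18e-11).

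Prkg2, the cGMP-dependent kinase that growth plate chondrocytes need to become hypertrophic, read 6.58, 6.13, 5.44 and 5.50 in SL, against 10.20, 10.10, 9.82 and 9.86 in A (-4.09 ± 0.33). Dmp1, an acidic matrix protein of osteocytes (chromosome 5, 104202613 to 104214102), read 4.61, 4.71, 4.93 and 4.78 in SL, against 8.66, 8.49, 8.65 and 7.89 in A (-3.67 ± 0.24, adjusted p = 1.34e-09). The rest of the 10 were Kcna1, a voltage-gated potassium channel (-3.99 ± 0.38), Fxyd2, a regulator of the sodium pump (-3.97 ± 0.32), Epyc, the cartilage proteoglycan epiphycan (-3.95 ± 0.37), Calml3, a calmodulin-like protein (-3.62 ± 0.32), and Serpina1a (-3.80 ± 0.29). Serpina1a is 1 of several nearly identical serpin genes, so the probe set may not read it alone.

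**Figure D2:**
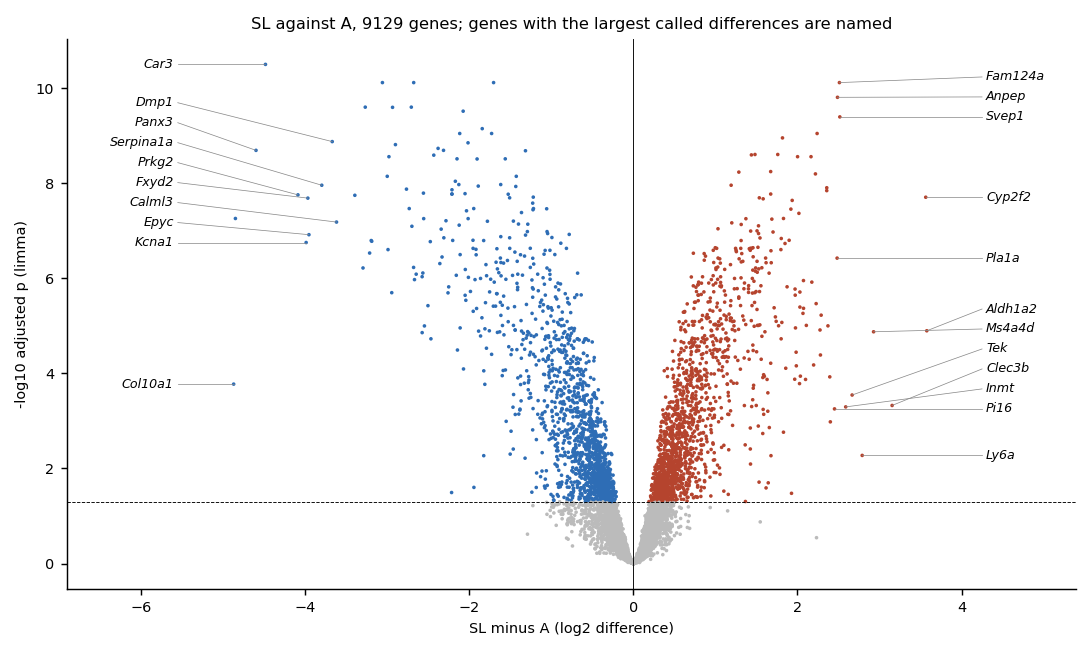
Each point is 1 of 9129 genes, with the SL minus A difference (log2) on the horizontal axis and -log10 of limma's adjusted p on the vertical axis. Red genes were called higher in SL, blue genes lower, grey genes were not called, and the dashed line marks an adjusted p of 0.05. Car3 stands highest on the side of lower signal in SL and Fam124a among the 12 labelled genes on the other side.

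The same 22 genes were set against the other sorted groups. These comparisons reuse the SL or the A arrays by which the genes were chosen. Counts above the background shares therefore follow in part from that choice and are no separate support. The values are given side by side. SL differed from DN in 45% of all genes, from B in 12.5% and from AB in 9.3%. All 12 genes higher in SL than in A were also called higher in SL than in DN (background 23.8%), 9 were higher than in B (background 5.63%) and 5 higher than in AB (background 4.38%). The 5 were Clec3b, Tek, Inmt, Fam124a and Anpep. Tek was higher in SL than in AB by 2.34 (adjusted p = 0.00329), in which it averaged 7.48 in SL and 5.14 in AB. Aldh1a2 averaged 8.69 in SL, against means of 5.11 for A, 7.22 for AB, 5.71 for B and 4.55 for DN, and its difference from AB, 1.47, was not called (adjusted p = 0.0705). Ly6a averaged 10.51 in SL, against 7.72 for A, 8.28 for AB, 8.80 for B and 7.53 for DN, with an SD of 2.03 over the B arrays, and its difference from B was not called (1.71, adjusted p = 0.147).

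All 10 of these genes lower in SL than in A were also called lower in SL than in DN (background 21.2%), 6 were lower than in B (background 6.88%) and 2, namely Car3 and Dmp1, lower than in AB (background 4.92%). Col10a1 averaged 7.27 in SL, against 12.14 for A, 6.88 for AB, 8.63 for B and 12.34 for DN. Its SL level could not be told from that of AB (0.39, adjusted p = 0.899) or of B (-1.36, adjusted p = 0.399). Dmp1 followed another order, with 4.76 in SL, against 8.42 for A, 8.41 for AB, 7.88 for B and 7.43 for DN, so SL alone was low (SL minus AB -3.66, adjusted p = 3.02e-09). Car3 was highest in A, at 9.57, against 5.08 in SL, 7.64 in AB, 7.15 in B and 7.52 in DN. Between A and DN, 320 genes were called (3.51%), 262 higher in A (2.87%) and 58 lower (0.635%). Among these 22 genes they were Car3 (A minus DN 2.05, adjusted p = 8.73e-06), Dmp1 (1.00, adjusted p = 0.0229), Svep1 (0.70, adjusted p = 0.0114) and Serpina1a (-1.14, adjusted p = 0.0329).

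**Figure D3:**
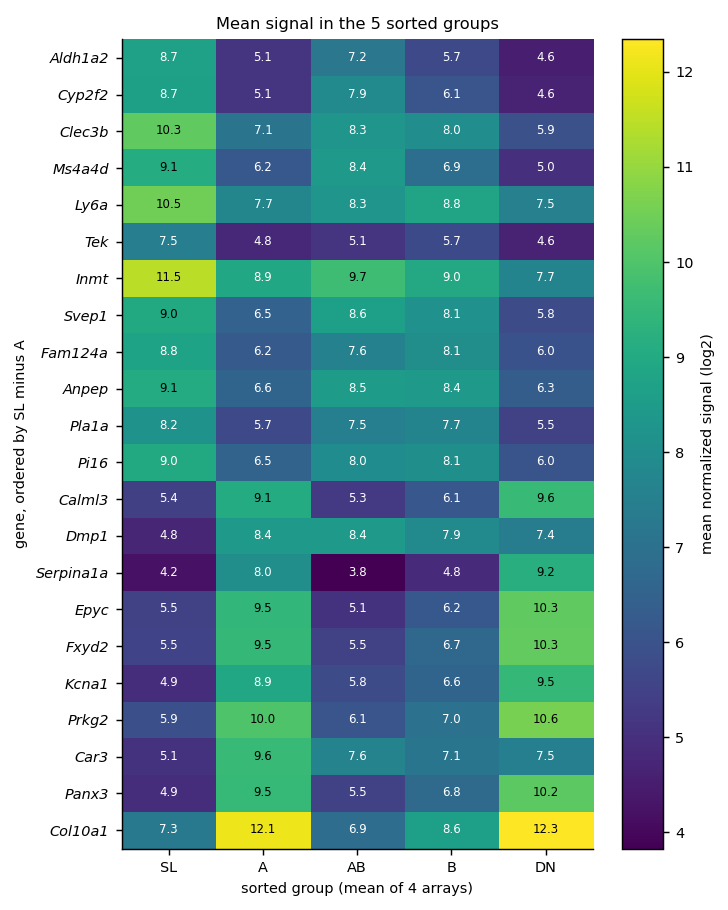
Mean normalized signal (log2, 4 arrays each) of the 12 highest and 10 of the lowest genes in SL against A, in the groups SL, A, AB, B and DN, with each mean printed in its cell. The lower rows are bright in A and DN, with Col10a1 at 12.14 and 12.34, while Dmp1 is low in SL and not in the other 4 groups.

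Groups of genes were described next, each by the number of its tested members that were called and by their median difference. The lists were drawn up with earlier results of these data known, so their counts describe the members and are no independent evidence of a direction. Over all genes 16.8% were called higher and 15.8% lower in SL, and a list's share near these is no result about its members. Cartilage genes were nearly all lower in SL. Of 25 tested members of a chondrocyte and growth plate list of 29, 24 were lower in SL (96.0%, against 15.8% of all genes), none was higher, and the median was -1.86. Their mean signal was 9.07, 9.08, 9.18 and 8.90 in the SL arrays, against 11.28, 11.28, 11.12 and 11.16 in the A arrays. The decrease covered Ihh, the growth plate hedgehog signal (-2.5 ± 0.31), Sox9, the transcription factor that chondrocytes depend on (-1.60 ± 0.20), Acan, the core protein of the cartilage proteoglycan aggrecan (-1.22 ± 0.10), and Ucma, a cartilage protein rich in gamma-carboxyglutamate (-2.68 ± 0.28). Col2a1, the main collagen of cartilage, was the member that was not called (-0.12 ± 0.14, adjusted p = 0.56).

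Promoters of 3 of these genes are shown because the list moved together and because RUNX factors are known to act on hypertrophic cartilage and bone genes. Each runs from 250 bases before to 50 bases after the annotated start in RefSeq GRCm38.p6, 5′ to 3′ on the gene's strand, with the core RUNX motif ACCACA, which reads TGTGGT on the opposite strand, in capitals. They lie at chr10:34389731-34390030 (plus strand), chr10:97643818-97644117 (plus strand) and chr2:4975872-4976171 (plus strand).
Col10a1: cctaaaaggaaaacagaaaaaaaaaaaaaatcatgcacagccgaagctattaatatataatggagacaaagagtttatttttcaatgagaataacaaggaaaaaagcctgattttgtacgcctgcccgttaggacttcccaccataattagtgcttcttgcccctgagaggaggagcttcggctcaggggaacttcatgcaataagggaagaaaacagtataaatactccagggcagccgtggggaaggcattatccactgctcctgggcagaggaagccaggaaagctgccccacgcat
Epyc: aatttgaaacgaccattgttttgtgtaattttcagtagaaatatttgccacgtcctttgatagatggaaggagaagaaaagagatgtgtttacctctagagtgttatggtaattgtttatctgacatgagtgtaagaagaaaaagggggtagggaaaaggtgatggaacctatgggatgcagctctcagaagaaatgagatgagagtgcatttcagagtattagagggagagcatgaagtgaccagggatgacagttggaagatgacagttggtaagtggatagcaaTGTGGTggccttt
Ucma: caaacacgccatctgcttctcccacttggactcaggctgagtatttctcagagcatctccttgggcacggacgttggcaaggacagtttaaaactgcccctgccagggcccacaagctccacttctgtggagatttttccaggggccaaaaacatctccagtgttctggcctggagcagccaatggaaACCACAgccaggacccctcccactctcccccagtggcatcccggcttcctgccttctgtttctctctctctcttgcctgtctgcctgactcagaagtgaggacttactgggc
The Epyc window holds 1 match, 37 bases after the start, and the Ucma window 1 match, beginning at -62 from the start. The Col10a1 window holds none, which says only that these letters are not in this window. Of the tested genes with a promoter in the table, 824 of 7067 held the motif (11.7%), against 3 of 17 in the chondrocyte list (17.6%) and 6 of 20 in the osteoblast list (30.0%). A match is a run of letters and not a shown binding site.

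Most genes of bone matrix and mineralization were lower in SL. Of 28 tested members of an osteoblast matrix and mineralization list of 32, 18 were lower in SL (64.3%), 3 higher and 7 not called, with a median of -0.65. Averaged over the members, signal was 9.65, 9.61, 9.56 and 9.58 in SL, against 10.62, 10.58, 10.42 and 10.38 in A. Besides Car3, the members furthest apart were Slc13a5, a citrate transporter (5.32, 5.42, 5.10 and 5.26 in SL, against 8.63, 8.25, 7.99 and 7.97 in A, -2.93 ± 0.17, adjusted p = 2.55e-10), and Smpd3, a sphingomyelinase needed for mineralization (8.10, 8.41, 8.23 and 7.45 in SL, against 10.84, 10.89, 10.80 and 10.58 in A, -2.73 ± 0.23, adjusted p = 3.42e-08). Slc36a2, an amino acid transporter, was lower by a similar amount (-2.56 ± 0.20). Phospho1, the phosphatase that starts mineralization in matrix vesicles (-1.86 ± 0.21), Spp1, osteopontin (-1.02 ± 0.11), Alpl, tissue-nonspecific alkaline phosphatase (-0.79 ± 0.15), and Ibsp, bone sialoprotein (-0.52 ± 0.10), were also lower. The genes of type I collagen and of osteonectin were not called: Col1a1 gave 0.13 ± 0.08 (adjusted p = 0.248), Col1a2 0.05 ± 0.06 (adjusted p = 0.614) and Sparc, which encodes osteonectin, 0.02 ± 0.06 (adjusted p = 0.842). The members higher in SL were Tmem119 (0.55 ± 0.09), Serpinf1 (0.41 ± 0.08) and the collagenase gene Mmp13 (0.32 ± 0.10).

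Of 12 tested transcription factors of the osteoblast lineage, 5 were lower in SL (41.7%, against 15.8% of all genes). Another 2 were higher (16.7%, close to the 16.8% of all genes), and the median was -0.26. Mef2c, which drives the sclerostin enhancer in osteocytes and also acts in hypertrophic cartilage, read 8.48, 8.65, 8.76 and 8.62 in SL, against 10.33, 10.18, 9.89 and 9.79 in A (-1.42 ± 0.16, adjusted p = 1.28e-06). Twist2, an inhibitor of osteoblast differentiation, was higher, at 7.28, 6.81, 6.75 and 7.07 in SL, against 6.08, 6.02, 5.77 and 5.66 in A (1.09 ± 0.15, adjusted p = 1.18e-05). Runx2, which commits cells to the osteoblast lineage, was not called (-0.31 ± 0.17, adjusted p = 0.171). Sp7, osterix, was called by a narrow margin (-0.58 ± 0.22, adjusted p = 0.0486) and not in 5 of 15 alternative settings, among them those without SL replicate 3 (adjusted p = 0.176), SL replicate 4 (0.0887), A replicate 1 (0.179) or A replicate 2 (0.116).

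Of 10 tested osteocyte genes 5 were lower (50%, against 15.8% of all genes) and 3 higher (30%, against 16.8%) in SL. Besides Dmp1, the lower members included Tnfrsf11b, osteoprotegerin, the decoy receptor for RANKL, with 8.58, 8.75, 8.77 and 8.35 in SL, against 10.08, 10.15, 9.94 and 10.01 in A (-1.43 ± 0.11, adjusted p = 1.17e-08). Fam20c, the kinase that phosphorylates secreted bone proteins, was lower by 0.95 ± 0.11 on the log2 scale. Pdpn, podoplanin, which early osteocytes and also fibroblasts carry, was higher, at 9.46, 9.28, 9.29 and 9.17 in SL, against 7.85, 7.71, 7.70 and 7.94 in A (1.5 ± 0.18, adjusted p = 1.9e-06).

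Genes of Sca-1-positive fibroblasts formed the clearest group on the other side. Of 28 tested members of a list of 30, 21 were higher in SL (75.0%, against 16.8% of all genes), 1 was lower, and the median was 1.40. Their mean signal was 10.42, 10.15, 10.34 and 10.24 in SL, against 9.09, 8.85, 8.97 and 9.13 in A. Besides Clec3b, Ms4a4d, Ly6a and Pi16, the called members included Cd248, endosialin (2.10 ± 0.36), Thy1, the surface protein CD90 (1.92 ± 0.16), Cd34, a sialomucin of progenitors (1.93 ± 0.67, adjusted p = 0.0333), and Dpt, the matrix protein dermatopontin (1.51 ± 0.20). Ugdh, which makes the sugar precursor of hyaluronan, was the member lower in SL (-0.64 ± 0.15). Fn1, fibronectin, was not called (-0.08 ± 0.07, adjusted p = 0.417).

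Elastic fibre genes were higher as well, with 14 of 22 tested higher (63.6%), 3 lower and a median of 0.87. Eln, which encodes elastin itself, read 11.63, 11.48, 11.73 and 12 in SL, against 9.36, 9.56, 9.46 and 9.76 in A (2.18 ± 0.25, adjusted p = 1.21e-06). The microfibril protein gene Mfap5 read 10.42, 9.78, 10.10 and 10.01 in SL, against 8.04, 7.27, 7.38 and 8.04 in A (2.39 ± 0.40, adjusted p = 0.000119). Fbln2, fibulin 2 (2.29 ± 0.30), and Ltbp4, a latent TGF-beta binding protein of elastic fibres (2.02 ± 0.17), were close behind. Of the crosslinking enzymes, Loxl1 was higher (1.44 ± 0.10) and Loxl4 lower (-1.90 ± 0.13).

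Basement membrane genes gave 16 of 22 tested higher (72.7%), 1 lower and a median of 0.78. Col4a1, a chain of the collagen IV network, read 12.61, 12.29, 12.48 and 12.27 in SL, against 10.99, 10.83, 10.98 and 10.91 in A (1.48 ± 0.10, adjusted p = 2.5e-09). Lamb1, the laminin beta 1 chain, read 10.25, 9.80, 10.23 and 9.83 in SL, against 8.46, 7.97, 8.51 and 8.36 in A (1.70 ± 0.16, adjusted p = 1.07e-07). Nid2, a nidogen that links laminin and collagen IV, was the member lower in SL, at 7.72, 7.19, 7.70 and 6.88, against 9.18, 9.31, 8.50 and 8.85 in A (-1.59 ± 0.26, adjusted p = 8.7e-05). Hspg2, perlecan, was not called (0.12 ± 0.12, adjusted p = 0.48).

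Collagen genes and the enzymes that process collagen were divided, with 12 of 31 tested higher (38.7%), 8 lower (25.8%) and a median of 0.13. Over all genes the shares were 16.8% and 15.8%. Col14a1 was 2.07 ± 0.26 and Col5a3 1.67 ± 0.12 higher in SL, both of them collagens that associate with or copolymerize into fibrils. Col24a1, a fibrillar collagen of bone, was lower, at 5.96, 6.04, 6.64 and 6.33 in SL, against 8.28, 8.60, 8.10 and 8.58 in A (-2.15 ± 0.15, adjusted p = 3.08e-09), as was Col22a1 (-1.56 ± 0.25). The small leucine-rich proteoglycans gave 6 of 13 higher (46.2%) and 3 lower (23.1%). Podn, podocan, was higher (1.46 ± 0.14), and Epyc, Chad, chondroadherin (-1.43 ± 0.11), and Omd, osteomodulin (-1.22 ± 0.10), were lower. Tendon and periosteum genes gave 7 of 19 higher (36.8%) and 2 lower (10.5%). Tnxb, tenascin X, read 11.99, 11.54, 11.96 and 11.73 in SL, against 9.56, 8.93, 9.81 and 9.79 in A (2.28 ± 0.35, adjusted p = 4.11e-05), whereas the tendon genes Scx (0.47 ± 0.25, adjusted p = 0.16) and Tnmd (0.19 ± 0.24, adjusted p = 0.592) were not called.

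Matrix proteases and their inhibitors gave 17 of 31 tested higher (54.8%), 4 lower and a median of 0.42. Mmp3, stromelysin 1, read 10.47, 11.07, 10.99 and 10.97 in SL, against 8.76, 9.26, 9.18 and 9.33 in A (1.74 ± 0.23, adjusted p = 8.05e-06). Mmp11, stromelysin 3 (1.62 ± 0.17), Adam33 (1.45 ± 0.17) and Adamts15, an aggrecan-cleaving protease (1.45 ± 0.18), were also higher. Timp1, an inhibitor of metalloproteinases, was lower (-0.78 ± 0.10).

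Genes of the complement system gave 10 of 16 tested higher (62.5%), 2 lower and a median of 0.77. C1s1, a protease of the first complement component, read 9.71, 9.40, 9.85 and 9.29 in SL, against 7.81, 6.93, 7.88 and 7.68 in A (1.98 ± 0.30, adjusted p = 3.59e-05). C3, the central component, read 10.50, 9.94, 10.28 and 10.25 in SL, against 8.52, 8.56, 8.51 and 9.06 in A (1.58 ± 0.36, adjusted p = 0.00184). Cfb, factor B of the alternative pathway (1.56 ± 0.24), and Cd55, which breaks down the convertases (2.20 ± 0.35), were higher too.

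Enzymes of detoxification and redox balance gave 15 of 30 tested higher (50%), 2 lower and a median of 0.45. After Cyp2f2 came the flavin monooxygenase Fmo2, at 8.19, 7.42, 7.89 and 7.66 in SL, against 5.71, 5.41, 5.97 and 5.78 in A (2.07 ± 0.23, adjusted p = 1.12e-06), and the glutathione transferase Gstt1 (1.61 ± 0.17). Mgst1, another glutathione transferase, was higher by 1.53 ± 0.48 (adjusted p = 0.0194), a call that was lost without SL replicate 1 (0.0568) or A replicate 3 (0.059). In the retinoid list 5 of 14 tested genes were higher (35.7%, against 16.8% of all genes) and 2 lower (14.3%, close to the 15.8% of all genes). Crabp2, which carries retinoic acid, accompanied Aldh1a2 (1.15 ± 0.23). Rbp4, the secreted retinol carrier, was lower (-0.69 ± 0.14).

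Growth factor pathways held members on both sides. In the BMP and TGF-beta list 13 of 40 tested genes were higher (32.5%, against 16.8% of all genes). A further 9 were lower (22.5%, against 15.8% of all genes), and the median was 0.08. Among ligands, Bmp4 read 8.65, 8.60, 8.81 and 8.36 in SL, against 6.14, 5.56, 7.17 and 6.44 in A (2.28 ± 0.31, adjusted p = 1.22e-05). Bmp7 went the other way, at 6.02, 6.08, 6.54 and 6.14 in SL, against 7.81, 8.51, 8.23 and 8.27 in A (-2.01 ± 0.18, adjusted p = 5.57e-08), as did Bmp8a (-2.55 ± 0.22) and Bmp2 (-0.80 ± 0.13). The activin antagonist Fst, follistatin, was higher, at 8.44, 8.01, 8.42 and 7.99 in SL, against 5.56, 5.85, 5.96 and 6.05 in A (2.36 ± 0.19, adjusted p = 1.44e-08), and so was the receptor gene Acvrl1 (1.56 ± 0.18).

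In the Wnt list 14 of 38 tested genes were higher (36.8%, against 16.8% of all genes) and 13 lower (34.2%, against 15.8%). The median was 0.04, so no common direction was seen. Of the secreted antagonists, Frzb read 7.53, 7.23, 6.82 and 6.51 in SL, against 9.54, 9.41, 8.87 and 9.27 in A (-2.25 ± 0.26, adjusted p = 1.52e-06). Sfrp4 read 10.77, 10.77, 10.28 and 10.86 in SL, against 9.22, 8.74, 8.55 and 9.24 in A (1.73 ± 0.22, adjusted p = 6.5e-06), and Sfrp2 was higher by 1.57 ± 0.22. The R-spondin receptor Lgr6 (-1.95 ± 0.25), the ligand Wnt4 (-1.53 ± 0.19) and the transcription factor Lef1 (-1.61 ± 0.17) were lower. Wisp2, a CCN family matrix protein, was higher (1.97 ± 0.24), as was the ligand Wnt5a (0.83 ± 0.22).

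The insulin-like growth factor list gave 5 of 13 tested higher (38.5%, against 16.8% of all genes) and 1 lower (7.69%, against 15.8%). Igf1, the growth factor itself, read 12, 11.47, 11.61 and 11.63 in SL, against 10.47, 9.74, 10.12 and 10.28 in A (1.53 ± 0.14, adjusted p = 7.89e-08). Its binding protein genes Igfbp3 (2.17 ± 0.15) and Igfbp6 (1.51 ± 0.19) were higher, Igf2 was not called (-0.07 ± 0.09, adjusted p = 0.6), and Stc2, whose product inhibits the protease that releases IGF, was lower (-1.29 ± 0.12). Cytokine and chemokine genes gave 10 of 23 higher (43.5%) and 6 lower (26.1%), the lower count being 3 with the mean of all probe sets of a gene. Ccl11, eotaxin (1.64 ± 0.30), the alarmin gene Il33 (1.43 ± 0.39) and Csf1, the macrophage growth factor (0.83 ± 0.11), were higher, and Lif (-0.79 ± 0.11) was lower.

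Marrow stromal reticular genes, which include factors that hold blood stem cells, gave 9 of 23 higher (39.1%, against 16.8% of all genes). Another 6 were lower (26.1%, against 15.8% of all genes), with a median of 0.13, and the lower count was 3 without SL replicate 2. Angpt1, a ligand of the receptor that Tek encodes, read 8.04, 8.01, 8.13 and 8.30 in SL, against 6.41, 6.53, 6.29 and 6.16 in A (1.77 ± 0.24, adjusted p = 9.98e-06). Gas6, a ligand of TAM receptors, was higher by 1.25 ± 0.12 and the chemokine gene Cxcl14 by 1.28 ± 0.18. Cxcl12, the chemokine that retains blood stem cells in marrow, was lower (-0.94 ± 0.19, adjusted p = 0.000723). Kitl, stem cell factor (-0.06 ± 0.16, adjusted p = 0.835), and Lepr, the leptin receptor (-0.02 ± 0.32, adjusted p = 0.973), were not called.

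Axon guidance genes gave 12 of 37 higher (32.4%, against 16.8% of all genes) and 6 lower (16.2%, close to the 15.8% of all genes). Unc5c, a netrin receptor, read 6.46, 6.03, 6.08 and 6.0 in SL, against 9.27, 9.40, 8.93 and 9.19 in A (-3.06 ± 0.15, adjusted p = 7.68e-11), while Ntn1, which encodes netrin 1, was higher, at 9.52, 9.47, 9.42 and 9.62 in SL, against 7.71, 7.92, 8.30 and 8.33 in A (1.44 ± 0.19, adjusted p = 7.78e-06). Other receptor genes were higher, such as Plxdc2 (0.83 ± 0.09), and other ligand genes lower, such as Sema7a (-0.67 ± 0.12), so neither class had a common direction. Among Hox and limb transcription factors 7 of 24 were higher (29.2%) and 1 lower (4.17%), the higher count being 11 without A replicate 3. They included the limb mesenchyme gene Prrx2, at 10.02, 9.99, 10.09 and 9.99 in SL, against 8.60, 8.48, 8.91 and 8.85 in A (1.32 ± 0.12, adjusted p = 7.39e-08), its relative Prrx1 (0.79 ± 0.09), Hoxd10 (1.05 ± 0.11) and Hoxa11 (0.73 ± 0.16). Hoxa10 was the remaining Hox gene called higher (0.36 ± 0.10), and Hoxc8 was lower (-0.69 ± 0.15). Most of the tested Hox genes were not called.

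Glycolysis genes gave 8 of 14 tested lower (57.1%), 1 higher and a median of -0.53. Hk2, a hexokinase, read 8.15, 8.41, 8.39 and 8.34 in SL, against 9.90, 10.08, 9.84 and 9.85 in A (-1.59 ± 0.21, adjusted p = 9.85e-06), and Slc2a1, the glucose transporter GLUT1, was lower by 1.27 ± 0.18 on the log2 scale. Eno2, an enolase, was the member that was higher (0.90 ± 0.17). Genes of folding and secretion in the endoplasmic reticulum gave 7 of 30 lower (23.3%, against 15.8% of all genes) and 1 higher, with small differences, the largest being Dnajb9 at -0.52 ± 0.11 (adjusted p = 0.00072). Interferon and antigen presentation genes gave 7 of 20 higher (35%, against 16.8% of all genes) and 2 lower (10%), with Gbp2, a guanylate-binding GTPase, highest (1.54 ± 0.21).

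Cell division genes were lower in SL. Of 24 tested members of a list of 32, 21 were lower (87.5%) and none higher, with a median of -0.76. Averaged over the members, signal was 6.98, 6.97, 7.14 and 7.19 in SL, against 8.09, 7.95, 7.65 and 8.05 in A. Top2a, topoisomerase II alpha, read 6.64, 6.63, 6.74 and 7.21 in SL, against 8.50, 8.43, 7.64 and 8.41 in A (-1.44 ± 0.29, adjusted p = 0.000731). Aurkb, a mitotic kinase, read 5.42, 6.08, 4.83 and 5.42 in SL, against 7.29, 7.23, 5.89 and 7.34 in A (-1.50 ± 0.38, adjusted p = 0.00499), with A replicate 3 below 1 SL array. Cdk1, the kinase that starts mitosis, was lower by 1.37 ± 0.26 on the log2 scale and Prc1, which bundles spindle microtubules, by 1.27 ± 0.22. Many members had low signal: with genes kept only where the SL or the A mean reached an intensity of 200, 13 were called. Dimmer members were not tested there, so that count does not by itself show that calls were lost.

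The cell cycle list moved together, so promoters of 3 members are shown. In many G2 and M phase genes a CCAAT box and a cell cycle homology region (CHR) close to the start are known elements. The windows are as above, with the CHR motif TTTGAA, which reads TTCAAA on the opposite strand, and the CCAAT box, which reads ATTGG there, in capitals, and lie at chr11:99024140-99024439 (minus strand), chr10:69352863-69353162 (minus strand) and chr7:80294201-80294500 (plus strand). The motifs do not overlap one another in these windows.
Top2a: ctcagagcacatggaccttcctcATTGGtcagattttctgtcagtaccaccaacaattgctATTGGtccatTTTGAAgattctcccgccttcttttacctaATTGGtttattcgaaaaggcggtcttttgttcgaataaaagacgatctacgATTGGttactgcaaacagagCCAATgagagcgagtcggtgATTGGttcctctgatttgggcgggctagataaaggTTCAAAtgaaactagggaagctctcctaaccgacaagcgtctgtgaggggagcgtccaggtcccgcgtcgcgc
Cdk1: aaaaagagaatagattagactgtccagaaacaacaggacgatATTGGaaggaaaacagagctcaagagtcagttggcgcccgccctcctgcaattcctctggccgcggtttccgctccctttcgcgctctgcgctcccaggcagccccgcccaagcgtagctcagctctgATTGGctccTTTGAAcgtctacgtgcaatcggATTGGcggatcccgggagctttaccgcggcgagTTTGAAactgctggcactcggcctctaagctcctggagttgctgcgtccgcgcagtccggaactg
Prc1: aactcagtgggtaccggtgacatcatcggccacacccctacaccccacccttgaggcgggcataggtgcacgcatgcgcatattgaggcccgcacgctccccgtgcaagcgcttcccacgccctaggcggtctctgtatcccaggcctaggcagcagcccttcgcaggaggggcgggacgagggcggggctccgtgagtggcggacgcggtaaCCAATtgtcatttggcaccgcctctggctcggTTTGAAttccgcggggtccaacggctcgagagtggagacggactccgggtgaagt
The Top2a window holds 2 CHR and 6 CCAAT matches, the CHR nearest to the start beginning at -23. The Cdk1 window holds 2 CHR matches, beginning at -71 and -15, and 3 CCAAT matches. The Prc1 window holds 1 of each, with the CHR at -5 and the CCAAT box at -37. A CHR match was present in 10 of the 20 cell cycle promoters in the table (50%), against 10.8% of all 7067, a CCAAT box in 16 of 20 (80.0%), against 37.5%, and both in 10 of 20 (50%), against 4.27%.

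Immediate early genes, which are also induced when tissue is dissociated, were lower in SL as a group. All 24 listed genes were tested and all 24 read lower in every SL array than in any A array, while arrays without overlap were found for 33.2% of all genes. Of them 18 were called (75.0%), with a median of -0.64. Their mean signal was 9.80, 9.91, 10.05 and 9.98 in SL, against 10.48, 10.57, 10.69 and 10.67 in A. Myc read 9.29, 9.67, 10.02 and 9.69 in SL, against 10.66, 10.69, 11.12 and 10.97 in A (-1.20 ± 0.18, adjusted p = 4.46e-05), and the zinc finger gene Egr2, also a regulator of myelination, read 8.43, 8.26, 8.58 and 8.41 in SL, against 10.13, 10.08, 10.04 and 9.88 in A (-1.61 ± 0.18, adjusted p = 8.9e-07). The AP-1 gene Jun was lower by 0.66 ± 0.09 and Fos by 0.41 ± 0.10 on the log2 scale. Handling times of the sorts are not in the labels, and their part in this difference was not tested.

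**Figure D4:**
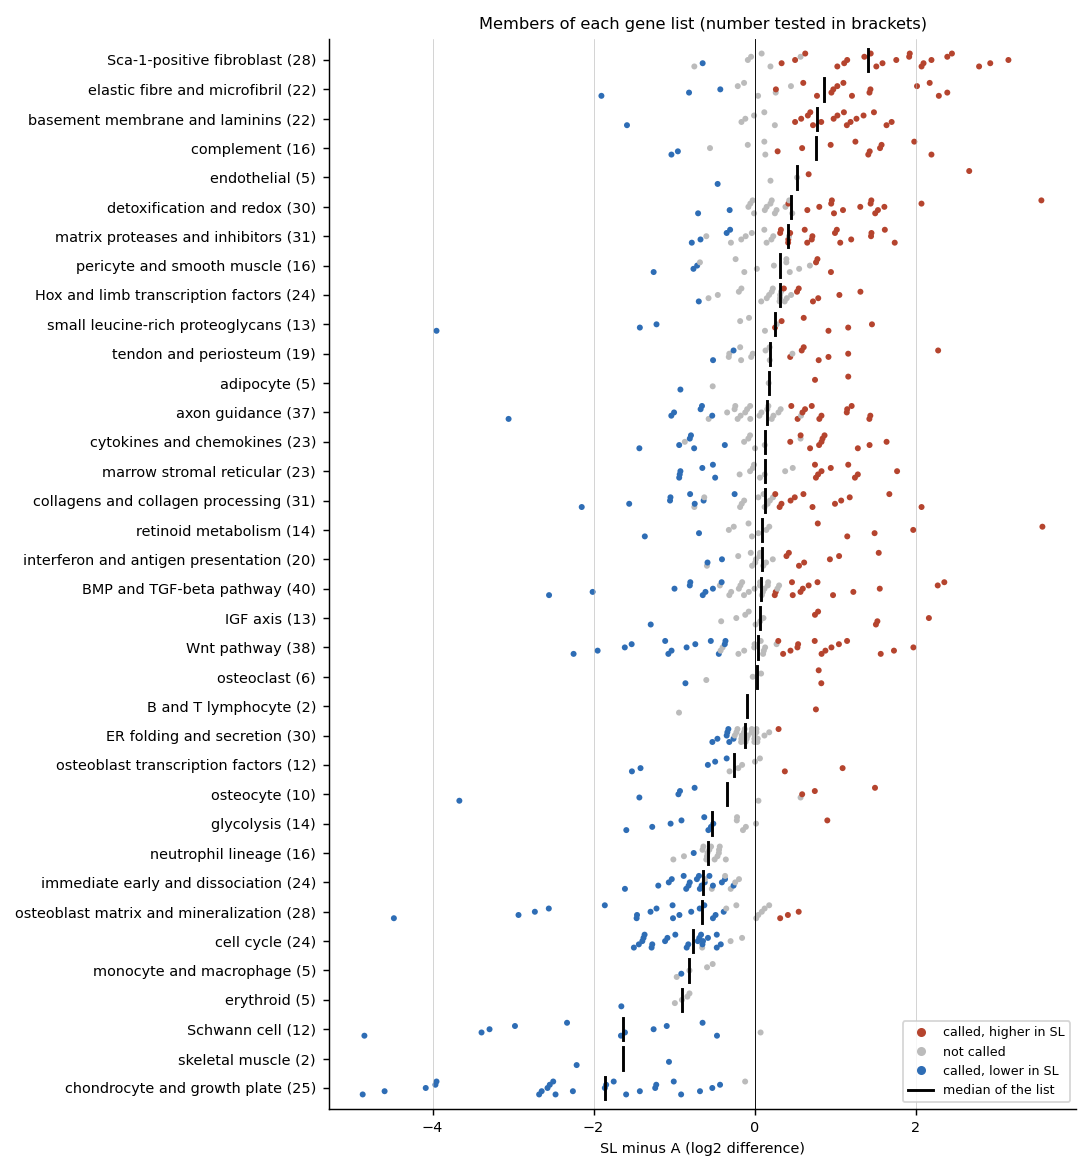
SL minus A difference (log2) of each tested member of 36 gene lists, ordered by the list's median (black bar). Red members were called higher in SL, blue members lower, and grey members were not called. Sca-1-positive fibroblast genes lie at the top, with a median of 1.40, and chondrocyte genes at the bottom, with -1.86.

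Markers of other cell types were read for both groups. The titles name gates against blood lineage and CD31-positive cells, and none is named for Schwann, muscle or fat cells. Of 12 tested Schwann cell genes of a list of 15, 11 were lower in SL (91.7%, against 15.8% of all genes). None was higher, and the median was -1.64. Averaged over the members, signal was 6.47, 6.47, 6.76 and 6.75 in SL, against 8.61, 8.44, 8.75 and 8.47 in A. Mbp, myelin basic protein, read 4.55, 4.49, 5.21 and 5.55 in SL, against 8.32, 7.82, 8.58 and 8.25 in A (-3.29 ± 0.35, adjusted p = 6.08e-07), and Sox10, the factor that defines the glial lineage, was lower by 1.25 ± 0.13 on the log2 scale. Pmp22, a myelin gene that fibroblasts also express, was not called (0.08 ± 0.10, adjusted p = 0.6). Among genes whose SL or A mean reached an intensity of 200, 5 members were called, and dimmer members were not tested there. Both tested skeletal muscle genes of 16 listed, Tnni2 (-2.21 ± 0.18) and Tnnt3 (-1.06 ± 0.19), were lower in SL, against 15.8% of all genes. Which cells carried these transcripts in the A pool, and their part in the other differences, was not tested.

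Blood cell genes varied between replicates within both groups. All 16 tested neutrophil lineage genes had a difference below 0, with a median of -0.57. Of them 1 was called lower (6.25%, against 15.8% of all genes), Lcn2, lipocalin 2 (-0.76 ± 0.28, adjusted p = 0.0469). That call was lost in 9 of 15 alternative settings (adjusted p 0.0525 to 0.182), among them those without SL replicate 1, 2 or 3 or A replicate 1, 2 or 4. The mean of the neutrophil members was 8.61, 8.43, 8.85 and 9.44 in SL, against 9.42, 9.52, 8.92 and 9.82 in A, so the groups overlapped. At each replicate number, however, the SL mean was below the A mean. Replicate 4 had the highest neutrophil mean in each of the 5 sorted groups, with 9.44 for SL, 9.82 for A, 10.20 for AB cells, 10.54 for B cells and 9.51 for DN cells. A replicate 3 had the lowest of the A arrays. The count was 5 without SL replicate 4 and 3 without A replicate 3. Mpo, myeloperoxidase, was not called (-0.59 ± 0.41, adjusted p = 0.29).

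Replicate 4 was also the highest array of each group for the monocyte and erythroid lists. The monocyte and macrophage list means lay between 7.20 and 8.31 in SL and between 7.91 and 8.85 in A. Of the 5 tested genes of that list Cd14 was called lower (-0.91 ± 0.29, adjusted p = 0.0213), 20% against 15.8% of all genes. That call was lost without SL replicate 2 (0.092) or A replicate 4 (0.0642). With the replicate number as a block, 5 monocyte genes were called. Of 5 erythroid genes Tfrc, the transferrin receptor, was called lower (-1.66 ± 0.18, adjusted p = 6.36e-07), 20% against 15.8% of all genes. The list means were 7.12, 6.97, 7.34 and 7.99 in SL, against 8.33, 8.26, 8.22 and 8.77 in A. The erythroid means did not overlap, and 5 members were called without SL replicate 4 and also with the replicate block. The A array with the lowest neutrophil mean, replicate 3, also had the lowest cell cycle mean of the A arrays, and SL replicate 4 had the highest of both among the SL arrays. The part of blood cells in the lower cell cycle signal was not tested. Without SL replicate 4, 19 cell cycle genes were called, and 20 without A replicate 3. Leaving out either array widens the gap between the group means of this list, so those counts do not address that question.

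Of 5 tested endothelial genes of a list of 15, Tek and Eng, endoglin (0.67 ± 0.13, adjusted p = 0.000473), were higher. Erg was lower (-0.46 ± 0.17, adjusted p = 0.0421). That is 40% higher, against 16.8% of all genes, and 20% lower, against 15.8%. The call of Erg was lost in 7 settings (adjusted p 0.0654 to 0.125), among them those without SL replicate 1, 3 or 4 or A replicate 2, 3 or 4. Pecam1, which defines the lineage, was not called, as given above. The median was 0.53, and the mean of the 5 genes was 7.49, 7.40, 7.94 and 7.53 in SL, against 6.81, 6.64, 6.85 and 7.16 in A. Those means did not overlap, and the part of endothelial cells in the other differences was not tested. Pericyte and smooth muscle genes gave 3 of 16 higher and 3 lower, 18.8% each way and so near the shares of all genes. Mcam, the adhesion protein CD146, was lower, at 5.49, 5.48, 5.50 and 5.56 in SL, against 6.85, 6.63, 6.93 and 6.64 in A (-1.25 ± 0.23, adjusted p = 0.000265), and Acta2, smooth muscle actin, was higher (0.76 ± 0.20, adjusted p = 0.00643). Of 6 osteoclast genes 2 were higher (33.3%, against 16.8% of all genes) and 1 lower (16.7%, close to the 15.8% of all genes). Ctsk, cathepsin K, which fibroblasts of periosteum and tendon also express, was higher (0.80 ± 0.09, adjusted p = 1.21e-06). Acp5 was higher too (0.83 ± 0.27, adjusted p = 0.0247), and Nfatc1 was lower (-0.86 ± 0.22, adjusted p = 0.00545). The call of Acp5 was lost in 6 settings (adjusted p 0.0501 to 0.0855), among them those without SL replicate 1, 3 or 4 or A replicate 1 or 2. Of 5 adipocyte genes Lpl (1.16 ± 0.17) and Ebf2 (0.75 ± 0.21) were higher (40%, against 16.8% of all genes). Adipoq was lower (-0.92 ± 0.29, adjusted p = 0.0209), 20% against 15.8% of all genes. The call of Adipoq was lost with quantile normalization and without SL replicate 1 or 2 or A replicate 2 or 4 (adjusted p 0.0512 to 0.0864). Of the B and T lymphocyte list 2 genes were tested, and they went opposite ways. Ebf1, which stromal cells express as well, was higher (0.76 ± 0.12). The immunoglobulin gene Ighm read lower but was not called (-0.94 ± 0.49, adjusted p = 0.157). It was called lower with SL and A arrays alone (adjusted p = 0.0291) and with the replicate block (0.0156). With SL, A and DN arrays only it was also called lower (0.0486).

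**Figure D5:**
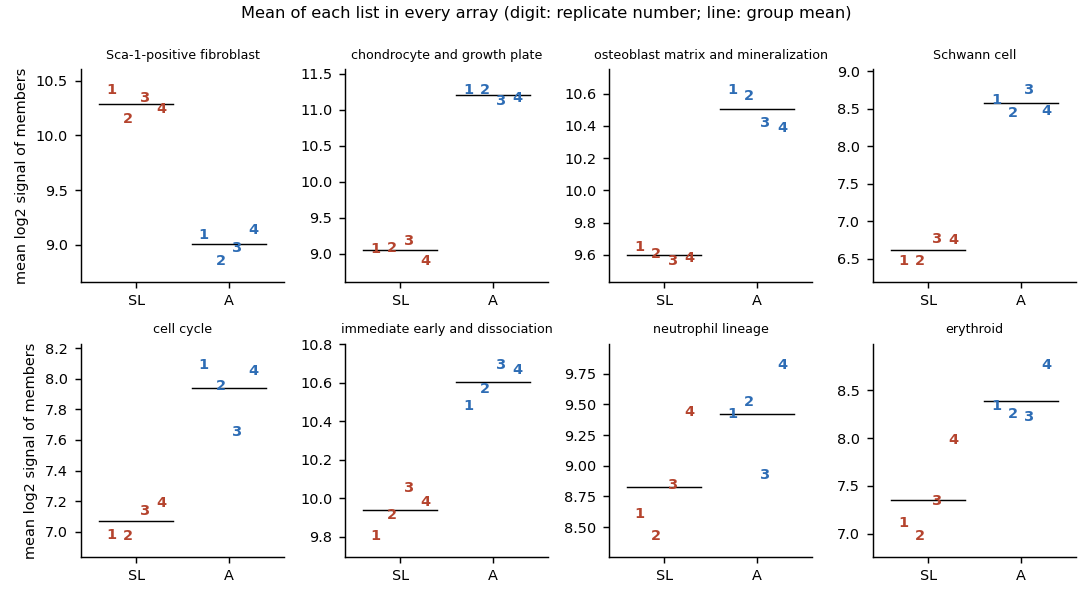
Mean log2 signal of the tested members of 8 gene lists in each SL array (left, red) and each A array (right, blue), with the digit giving the replicate number and the line the group mean. The vertical axes differ between panels. The fibroblast, chondrocyte, osteoblast, Schwann cell, cell cycle, immediate early and erythroid means do not overlap between the groups, and the neutrophil means do, with SL replicate 4 at 9.44 and A replicate 3 at 8.92.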

How the data were processed

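Biotin-labelled RNA of sorted bone cells was hybridized to expression arrays, per the labels. The authors' deposited filtered table holds normalized linear intensity for 12440 probe sets. Its values, turned to log2, lay within 0.0075 of the log2 signal in the authors' deposited series table of 24539 probe sets. How the authors normalized and filtered the arrays, and with which software, is not given in the sources used here. Without detection calls, a difference at low signal may be understated.

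Probe sets without a symbol (83) were left out, and for the 2431 genes with several, the brightest over the 20 arrays was taken, which left 9129 genes. For 8 genes, probe sets were called in opposite directions. One linear model over all 20 arrays in 5 groups was fitted with limma 3.58.1 in R 4.3.3 (15 residual and 4.34 prior degrees of freedom, median residual SD 0.185), and the contrast SL minus A was tested, two-sided, with Benjamini-Hochberg adjustment and a threshold of 0.05. On arrays simulated for this contrast (9129 genes, 200 changed), 62% of genes changed by log2 0.5, 92% by 1 and 98% by 2 were called, and 9 of 181 calls fell on unchanged genes. The simulation drew independent noise for each gene and array and changed far fewer genes than the 2976 called here. Its rates therefore check the procedure and need not hold for these data. Named genes were the gated markers and Ptprc, the 12 largest called differences each way whose arrays did not overlap (clone and prediction names left out), and up to 4 members of each of 36 lists with the largest difference; others were chosen after their values were seen. Of the genes that met this rule, 4 are not reported here. The members and lists were chosen with earlier results of these data known. Alternatives changed the arrays fitted, the replicate block, the normalization, the probe set rule, a filter on dim genes and the variance model, or left out 1 array each. Symbols are those of the files, and promoters are those of RefSeq (GRCm38.p6), matched by symbol for 7067 genes.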

Additional observations from a re-analysis of the deposited data

Results flagged for a closer look

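In 288 sets of 4 arrays, each a named gene in SL or in A, the array furthest from the rest was examined by its gap to the nearest other array as a share of the whole range, against Dixon's 95% critical value for 4 samples. Chance passes about 1 in 20 such sets, and 9 passed. A replicate 3 held 3 of them: Aurkb, at 5.89 against 7.23 to 7.34 in the other A arrays (share 0.923), Top2a, at 7.64 against 8.41 to 8.50 (0.899), and Pdgfra, at 9.15 against 8.95 to 8.97 (0.900). A replicate 4 was highest for C3, at 9.06 against 8.51 to 8.56 (0.915), and for Alas2, at 9.90 against 9.21 to 9.30 (0.873). A replicate 1 was highest for Lpl, at 9.71 against 9.12 to 9.17 (0.909). SL replicate 3 was lowest for Itgav, at 9.62 against 9.93 to 9.97 (0.907), and for Sfrp4, at 10.28 against 10.77 to 10.86 (0.850). SL replicate 1 was highest for Unc5c, at 6.46 against 6.0 to 6.08 (0.835). Among these genes, the calls or missing calls of Aurkb, Top2a, Pdgfra, C3, Lpl, Itgav, Sfrp4 and Unc5c were the same in each alternative that tested the gene (14 for Aurkb, 15 for the others), whereas Alas2, not called (adjusted p = 0.0549), was called in 5.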

How the results depend on the processing

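The 2976 called genes (1534 higher and 1442 lower in SL) became 3095 with the SL and A arrays alone, 2985 with quantile normalization, 3076 with the mean of all probe sets, 2957 with an intensity trend and robust prior, 2850 with SL, A and DN arrays only, and 2358 of 6455 genes with the filter on dim genes. Leaving out 1 array gave 2515 to 2884 (1317 to 1452 higher, 1198 to 1432 lower), the fewest without A replicate 2. In none of the 15 alternatives was a gene called in the direction opposite to its first call. Same-numbered SL and A arrays deviated together with correlations across genes of 0.286, 0.0895, 0.0417 and 0.173, all positive. Pairs of different number gave -0.263 to 0.292, the highest for SL replicate 2 with A replicate 3. Replicate 4 was the highest for the neutrophil, monocyte and erythroid lists in all 5 groups. The labels do not say what the replicate numbers stand for, so the main fit left them out. It therefore does not account for differences that arrays of the same number share. With the replicate block 3366 genes were called, 2953 of them shared with the main fit. With that block 8 neutrophil, 5 monocyte and 5 erythroid genes were called. Of 144 named genes 129 were called, 7 of them not in at least 1 alternative, and 11 others were called in at least 1, among them Lyz2, Cybb, Mmp8, Car2 and Slc4a1. Of 1620 recomputed counts and medians of lists, 107 moved beyond their limit, for which the cause was not tested. The alternative with all probe sets of the unfiltered table was not run, since symbols for them were not used here. Over these alternatives tendon and periosteum genes gave 5 to 8 higher and 0 to 3 lower, and pericyte and smooth muscle genes 2 to 5 higher and 2 to 4 lower. Where signal lies near the low end, as for Car3 and Dmp1 in SL, the difference may be understated.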
